A study of Mus musculus with 8 samples.

Results

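The change from day 0 to day 5 of adipogenic differentiation was examined within shKDM4D cells, a line of C3H10T1/2 mouse mesenchymal stem cells (MSCs) in which KDM4D is knocked down. Every gene with an RPKM (reads per kilobase of exon, scaled to the mapped reads of the library) above 1 on at least 1 of the 2 days was included, which gave 10774 of the 41325 gene symbols listed. RNA-seq had been done on 4 lines (shControl, shKDM4D, shNFIB and shMLL1), each with 1 library at day 0 and 1 at day 5, so that no change has a replicate check and no p-value is given. Each knockdown line carries an shRNA in the pLKO.1 vector and was derived from puromycin-resistant clones, and the labels do not say which shKDM4D clone was sequenced. Day 0 cells were post-confluent and had received no hormone. For the day 5 libraries the cells had been given 10 µg/ml insulin, 1 µM dexamethasone and 0.5 mM isobutylmethylxanthine in medium with 10% serum until day 2, then insulin alone for a further 2 days, then serum only. All 8 libraries share the parental line and the medium, and the 4 day 5 libraries share the hormone treatment.

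KDM4D belongs to the KDM4 family of histone demethylases and removes methyl groups from H3K9me3, a mark of silent chromatin. In the textbook order of adipogenesis, hormones first switch on C/EBPβ and C/EBPδ, which then activate PPARγ and C/EBPα, and these last 2 factors switch on the genes of lipid storage and the hormones of the mature fat cell. The glucocorticoid dexamethasone and the rise of cAMP under isobutylmethylxanthine act directly on many genes outside this cascade, and confluent precursors leave the cell cycle before they mature.

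The 2 shKDM4D libraries held 19500000 and 21600000 mapped reads, recovered from the steps in the low RPKM values, and the 8 libraries ranged from 15800000 to 38200000. For a gene with 1 kb of exons, 3 reads corresponded to an RPKM of 0.154 on day 0 and 0.139 on day 5. *Kdm4d* itself was covered by 1 read on day 0 and 4 reads on day 5 in shKDM4D cells, against 2 and 13 reads in shControl cells. It thus lay under the RPKM limit in both lines, with too few reads to detect its knockdown at day 0. The study reports decreased KDM4D in its shKDM4D lines by RT-qPCR and immunoblot. Among MSC and fibroblast surface markers, 14 of 24 passed the RPKM limit. *Cd248* (229 and 469 RPKM), *Ly6a*, the stem cell antigen Sca-1 (191 and 109 RPKM), and *Itgb1* (154 and 157 RPKM) were among those present on both days. Few markers of other cells passed the limit. They were 1 of 12 macrophage, 3 of 10 endothelial, 0 of 12 skeletal muscle and 1 of 10 epithelial genes, and none of these moved by more than 2-fold. The summed RPKM of these lists lay between 0.985 and 21.6 on either day, with the endothelial list highest on day 0. A pair of entries for ribosomal-RNA-like transcripts, *AY036118* and *CT010467.1*, took 7.95% of the reads on day 0 and 3.22% on day 5 and fell in all 4 lines.

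A gene was counted as higher or lower when its ratio of (RPKM + 0.1) between the days exceeded 2-fold. By this rule 1147 genes (10.6% of the 10774) rose and 819 (7.6%) fell, and 8808 did neither. The median log2 change over all members was 0.02, with quartiles of -0.37 and 0.43. The rises reached further than the falls, with 93 genes more than 16-fold higher and 7 more than 16-fold lower. The genes that rose went from a median RPKM of 1.41 to 5.89 and took 3.96% of the reads on day 0 and 14.9% on day 5. Those that fell went from 8.60 to 2.93 and from 15.3% to 5.96% of the reads. A gene that passed the limit through 1 day alone had to be higher on that day, and this holds for 488 of the 1147 and 180 of the 819. Among the 9795 genes above the limit on both days, 659 (6.73%) rose and 639 (6.52%) fell. Whole reads could be recovered for 1096 of the genes that rose, and the exact 95% interval for counting error lay wholly past 2-fold for 819 of them. For the genes that fell it did so for 606 of 785. Scaling the libraries to *Gapdh*, which went from 326 to 236 RPKM, would shift the median by 0.46 and turn the split into 2358 higher and 376 lower, so directions are relative to the total of mapped reads. At the edge of the rule, *Scube2* (from 1.85 to 3.80 RPKM) was just inside the higher set and *Fzd2* (from 13.99 to 28.1 RPKM) just outside, and *Adam9* (from 93.3 to 46.5 RPKM) was just inside the lower set and *Vac14* (from 7.30 to 3.60 RPKM) just outside. *Zfp846* reached 1.00 RPKM on day 5 and was included, while *Tmem121* reached 0.999 and was not.

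**Figure D1:**
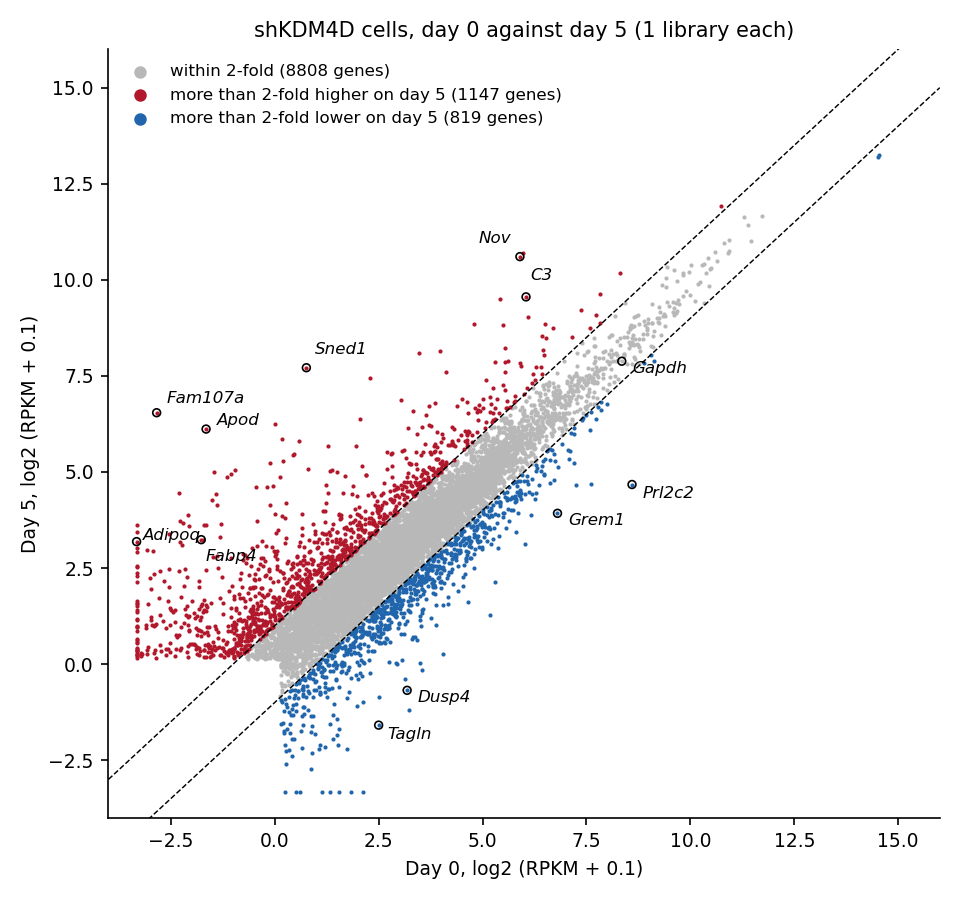
Each point is 1 of the 10774 genes, with log2 (RPKM + 0.1) on day 0 on the x axis and on day 5 on the y axis, and dashed lines at a 2-fold difference. The 1147 genes above the upper line include *Fam107a*, *Apod* and *Sned1*, and the vertical row of points at the left edge holds the 36 genes that rose from 0 reads on day 0.

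The largest induction among genes that reached an RPKM of at least 10 was of *Fam107a*, which encodes an actin-binding protein known to respond to glucocorticoids (chromosome 14 of GRCm38, from 8296274 to 8318023) and rose from 0.0397 to 93.1 RPKM. It was covered by 3 reads on day 0 and 7785 on day 5, and the log2 ratio of reads was 11.20 (95% interval 9.65 to 13.47). On the log2(RPKM + 0.1) scale its change was 9.38, against 9.25 in shControl cells. *Apod*, the lipid carrier apolipoprotein D, rose from 0.218 to 69.3 RPKM (log2 change 7.77), and *Sned1*, a matrix protein, rose from 1.60 to 209.7 RPKM (6.95). These 3 genes rose in each of the 4 lines, with *Sned1* in shNFIB cells the smallest change, 5.14. The neighbouring apolipoprotein genes *Apoe* and *Apoc1* also rose, *Apoe* from 0.263 to 31.6 RPKM (6.45) and *Apoc1* from no read to 10.8 RPKM, which is at least 52.4-fold higher than the 3-read floor. Enzymes of foreign-compound metabolism were among the 15 too. *Cyp2f2*, a cytochrome P450, went from no read to 12.1 RPKM (at least 159.7-fold) and *Sult1a1*, a sulfotransferase, went from 3 to 715 reads (log2 read ratio 7.75, interval 6.20 to 10.03). The remaining 8 of the first 15 were *1500015O10Rik* (from 0.908 to 75.6 RPKM), *Sparcl1*, *Hp*, *Gpm6b*, *Iqgap2*, *C4b*, *Gm48197* and *G0s2*, with log2 changes between 5.88 and 6.23.

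**Figure D2:**
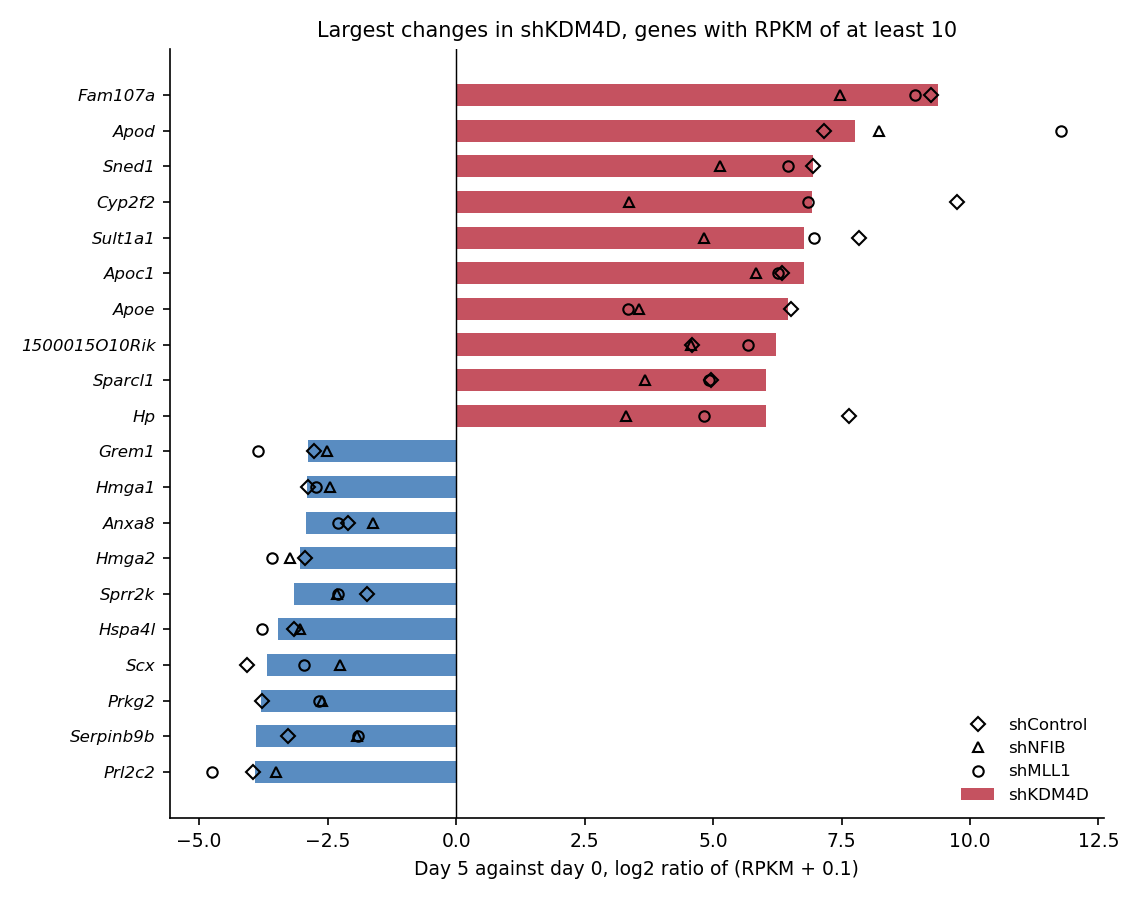
Bars give the log2 ratio of (RPKM + 0.1), day 5 to day 0, in shKDM4D cells for the 10 genes that rose most (red) and the 10 that fell most (blue) among genes with an RPKM of at least 10 on the higher day, and open symbols give the same ratio in the other lines. The symbols lie on the same side of 0 as the bar for each of the 20 genes, with *Anxa8* in shNFIB cells (-1.62) nearest to 0.

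Genes of the mature fat cell rose in part. Of 15 adipocyte markers, 7 passed the RPKM limit and 5 rose, with a median log2 change of 4.29 over the 7 (4.92 with the genes at 0 set to their bound). Only 2 of the 7 passed the limit on both days, and neither of these rose. *Adipoq*, the hormone adiponectin (chromosome 16 of GRCm38, from 23146536 to 23158028), had no read on day 0 and 269 reads on day 5, an RPKM of 9.01 and at least 81.0-fold above the floor. *Fabp4*, the fatty acid binding protein aP2 (chromosome 3 of GRCm38, from 10204088 to 10208576), rose from 0.194 to 9.34 RPKM, or from 17 to 906 reads (log2 change 5.01, read-ratio interval 4.90 to 6.38). *Cidec*, which fuses lipid droplets, went from 1 to 151 reads (log2 read ratio 7.09, interval 4.59 to 12.41), and *Plin1*, the droplet coat protein perilipin, went from no read to 1.86 RPKM. Hormone-sensitive lipase, *Lipe*, rose from 0.591 to 2.59 RPKM (1.96). The other 2 above the limit were within 2-fold. They were *Pnpla2*, adipose triglyceride lipase, at 6.22 and 10.2 RPKM, and *Acsl1*, an acyl-CoA synthetase, at 2.69 and 3.95 RPKM.

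The levels reached on day 5 were far below those of shControl cells. The 15 markers summed to an RPKM of 9.76 on day 0 and 43.3 on day 5 in shKDM4D cells, and to 11.7 and 979 in shControl cells. The same sums were 7.56 and 9.15 in the shNFIB line and 12.2 and 15.4 in the shMLL1 line. For *Fabp4* the shControl values were 0.661 and 277 RPKM, and the rise in shKDM4D cells was smaller by 3.50 on the log2 scale of (RPKM + 0.1). Of the 8 markers under the limit in shKDM4D cells, lipoprotein lipase (*Lpl*) was nearest to it at 0.998 RPKM on day 5, up from 1 read to 226, against 33.1 RPKM in shControl cells. *Cfd* (adipsin) had 10 reads on day 5, *Cd36* (a fatty acid transporter) 31 and *Slc2a4* (the insulin-responsive glucose transporter GLUT4) 29, and these 3 had no read on day 0. *Lep* (leptin) had no read on either day. In a bulk sample, fewer cells that turned into adipocytes and less marker RNA per cell cannot be told apart.

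**Figure D3:**
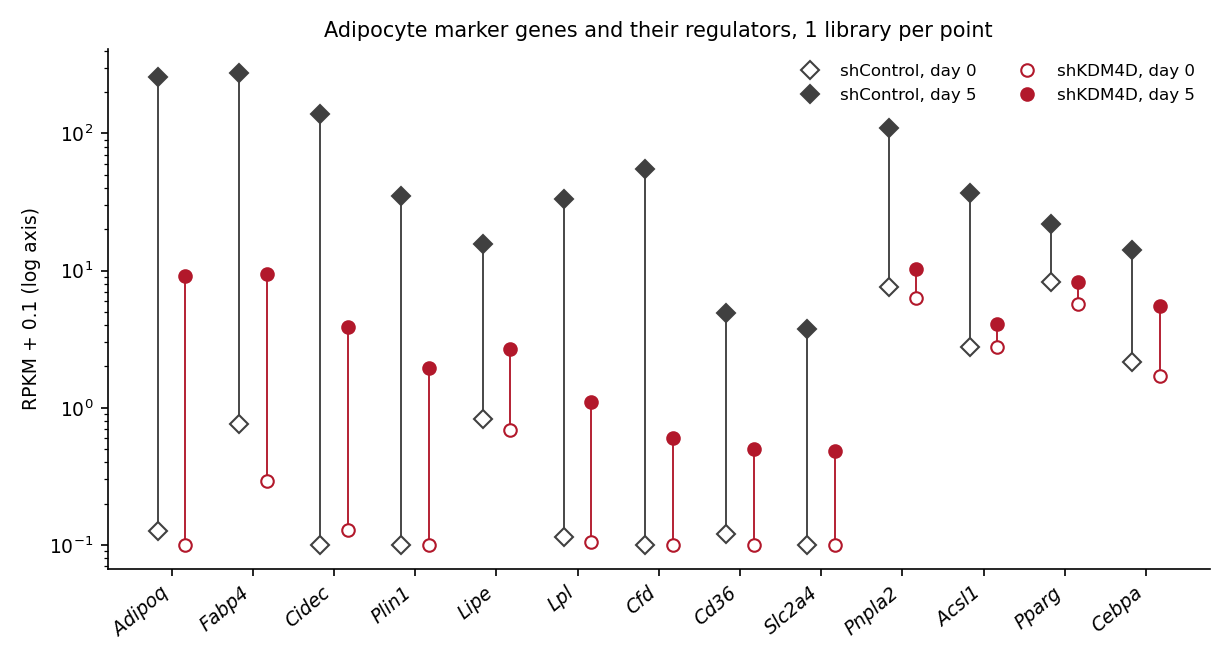
RPKM + 0.1 on a log axis for adipocyte marker genes and the regulators *Pparg* and *Cebpa*, with day 0 as open and day 5 as filled symbols, in shControl (grey diamonds) and shKDM4D cells (red circles). *Adipoq*, *Fabp4*, *Cidec* and *Plin1* rose in both lines, and the day 5 point of shKDM4D cells lies below that of shControl cells for each gene shown.

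The regulators upstream of these markers moved to different degrees. Of 32 pro-adipogenic transcription factors, 23 passed the limit, 7 rose and 3 fell, with a median change of 0.47. Of the 19 above the limit on both days 4 rose and 2 fell. *Cebpa* (chromosome 7 of GRCm38, from 35119293 to 35121928) rose from 1.59 to 5.42 RPKM, a log2 change of 1.71, against 2.71 in shControl cells. *Pparg* (chromosome 6 of GRCm38, from 115360951 to 115490399) was at 5.60 RPKM on day 0 and 8.21 on day 5 (0.54) and so stayed within 2-fold, as did the early factors *Cebpb* (from 61.1 to 65.9 RPKM) and *Cebpd* (from 31.3 to 41.4 RPKM). The rises differed in size. *Ppargc1a*, the coactivator PGC-1α, rose from 0.0466 to 1.32 RPKM (3.28), *Zfp423* from 0.803 to 5.23 RPKM (2.56), *Ebf1* from 3.85 to 20.6 RPKM (2.39) and *Rxra*, the partner of PPARγ, from 13.1 to 27.4 RPKM (1.06). *Egr2*, an early growth response factor, rose from 0.934 to 2.86 RPKM (1.52). *Nfia*, a nuclear factor I gene, rose from 1.72 to 4.63 RPKM (1.37), while its relative *Nfib* was at 11.5 and 22.98 RPKM. The Krüppel-like factors *Klf5* (-1.27) and *Klf4* (-1.18) fell, together with the clock gene *Arntl* (-1.14).

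Some factors known to hold precursors back rose as well. Of 27 genes listed as anti-adipogenic factors, 24 passed the limit, 6 rose and 1 fell, with a median of 0.10. *Dlk1*, the preadipocyte factor Pref-1, rose from 0.217 to 5.33 RPKM (4.10), against a change of 2.49 in shControl, 0.15 in shNFIB and 0.00 in shMLL1 cells. *Sox9*, which precursors lose as they commit, rose from 73.8 to 188 RPKM (1.34). The list and its count of rises also hold *Snai2*, a repressor of epithelial genes and not a settled anti-adipogenic factor. *Snai2* rose from 38.1 to 147 RPKM (1.94). *Tcf7l2* (2.15), *Klf2* (1.41) and *Zfp521* (1.37) completed the rises. *Dlk1* is also imprinted, and of 28 imprinted genes 12 passed the limit and 7 rose (median 1.37, and 0.19 with 3 rises among the 8 above the limit on both days), among them *Igf2* (3.49) and *H19* (from 0.645 to 8.26 RPKM). The Wnt ligand genes *Wnt1*, *Wnt6*, *Wnt10a* and *Wnt10b* were under the limit on both days, with at most 0.163 RPKM.

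In lipid metabolism, many of the rises were of genes that lay under the limit on day 0. Over all members 10.6% rose and 7.6% fell. Genes of fatty acid uptake, binding and activation had 2 rises and 3 falls among 12 (median -0.36, and 0.09 in shControl cells). The change was above 0 for 4 of them and below 0 for 8. *Fabp5* (-1.48), *Slc27a1* (-1.35) and *Acsl3* (-1.005) fell, and *Fabp4* (5.01) and *Lipa* (1.06) rose. Of 15 lipase genes and cofactors, 11 passed the limit, 6 rose and none fell (median 1.05, and 3.03 for the same genes in shControl cells). Of the 7 above the limit on both days 2 rose, and their median was 0.10. The carboxylesterases *Ces1d* (from 0.216 to 12.2 RPKM, 5.29) and *Ces1f* (from 0.203 to 9.21 RPKM, 4.94) rose more than in shControl cells, where the changes were 4.38 and 3.36. *G0s2*, an inhibitor of adipose triglyceride lipase, went from 2 to 239 reads (log2 read ratio 6.76, interval 4.89 to 9.81). In triglyceride synthesis 4 of 23 genes rose and 1 fell, with a median of 0.24. *Gpd1*, which makes glycerol phosphate, rose from 0.104 to 1.58 RPKM (3.04, and 7.06 in shControl cells), and *Dgat2*, which joins the last acyl chain, rose from 2.29 to 8.78 RPKM (1.89). Of 12 lipid droplet genes above the limit 4 rose (1 of the 9 above it on both days), among them *Plin4* (from 11.4 to 43.2 RPKM), while *Plin2* was at 30.1 and 46.4 RPKM. Adipokine and apolipoprotein genes had 8 rises and 1 fall among 12 (median 2.09, and 0.89 with 3 rises among the 7 above the limit on both days). Besides *Apod*, *Apoe* and *Adipoq* these included angiotensinogen (*Agt*, from no read to 7.41 RPKM, at least 91.3-fold), chemerin (*Rarres2*, from 1 read to 7.72 RPKM, log2 read ratio 8.65, interval 6.16 to 13.95) and *Nampt* (from 18.6 to 51.6 RPKM). Fatty acid oxidation had 2 rises among 23 genes, *Acadm* (1.45) and *Acaa2* (1.06), against 10.6% of all members. With scaling to *Gapdh* 10 of 24 rose, against 2358 of all 10898 genes above the limit. Pyruvate carboxylase (*Pcx*) rose from 3.95 to 17.0 RPKM (2.08).

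Falls were frequent among genes of cholesterol synthesis, and no gene of cholesterol export above the limit fell. Over all members 10.6% rose and 7.6% fell, and 6.73% rose among those above the limit on both days. Of 25 genes of cholesterol synthesis and uptake, 24 passed the limit, 15 fell and none rose (median -1.08). With scaling to *Gapdh* 9 of these fell and the median was -0.62. *Fdps*, *Sqle*, *Msmo1*, *Idi1* and *Cyp51*, enzymes along the route, fell by 1.80 to 2.37 on the log2 scale, and the regulator *Srebf2* fell from 20.9 to 9.59 RPKM (-1.12). Of 12 genes of cholesterol export, 10 passed the limit, 5 rose and none fell (median 1.21, and 0.89 with 2 rises among the 7 above the limit on both days). The transporters *Abcg1* (from 0.302 to 9.86 RPKM, 4.63) and *Abca1* (from 1.48 to 10.1 RPKM, 2.70), which load cholesterol onto lipoproteins, rose, and so did *Mylip*, a ubiquitin ligase that limits lipoprotein uptake (from 9.50 to 26.8 RPKM, 1.49). The synthesis genes had a median of -1.31 in shControl, -0.38 in shNFIB and -1.35 in shMLL1 cells.

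Many promoters of synthesis genes hold a short element, shown here for the 3 members with the largest falls that hold it upstream of the start. A CCAAT box (letters CCAAT, either strand) was found in 16 of the 17 promoters available (94.1%), against 43.9% of the 8404 promoters available for the members and 51.3% of those of the genes that fell. The box was in 89.5% of 19 promoters of ER chaperone genes, none of which passed 2-fold. Promoters are RefSeq windows of GRCm38.p6, from 250 bases before to 50 bases after the start, and a match is a description of the letters only. The stretches below read 5′ to 3′ in the direction of the gene, with the matches in capitals (ATTGG is the box on the other strand).
Msmo1, chr8:64733614-64733689, minus strand: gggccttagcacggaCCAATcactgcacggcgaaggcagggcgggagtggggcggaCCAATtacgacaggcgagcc
Cyp51, chr5:4104707-4104741, minus strand: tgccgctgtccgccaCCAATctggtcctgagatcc
Mvd, chr8:122443430-122443497, minus strand: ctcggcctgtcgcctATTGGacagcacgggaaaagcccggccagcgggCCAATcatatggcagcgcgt
*Msmo1* fell from 8.70 to 1.96 RPKM (-2.10), *Cyp51* from 24.8 to 7.06 RPKM (-1.80) and *Mvd* from 3.08 to 1.07 RPKM (-1.44).

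The lowest median of the 55 gene lists was that of mitosis. Of 46 genes of mitosis and G2/M, 45 passed the limit and each of these fell, with a median of -1.64 and a range from -2.20 to -1.03, against 7.6% of all members falling. Their summed RPKM went from 1735 to 571. With scaling to *Gapdh* 36 of the 45 fell by more than 2-fold (median -1.18). *Nek2* (from 19.6 to 4.18 RPKM) and *Aurka* (from 37.0 to 8.59 RPKM), mitotic kinases, had the largest falls, of 2.20 and 2.09 on the log2 scale. The kinase *Plk1* fell from 49.9 to 13.1 RPKM, *Foxm1*, the factor that drives this programme, from 24.1 to 6.28 RPKM, and *Top2a* from 107 to 38.6 RPKM. The smallest fall was of cyclin B2 (*Ccnb2*, from 49.7 to 24.3 RPKM). Over the same 45 genes the median was -1.28 in shControl (40 fell), -1.19 in shNFIB (33 fell) and -1.04 in shMLL1 cells (25 fell). Their summed RPKM went from 1131 to 465 in shControl, from 1739 to 750 in shNFIB and from 1580 to 751 in shMLL1 cells. The sum in shKDM4D cells was thus above that of shControl cells on both days. DNA replication genes had 32 falls and no rise among 43 (median -1.27, and 14 falls with scaling to *Gapdh*). *Orc1* (-2.06) and *Cdt1* (-2.03), which license origins, and *Mcm5* (-1.65), part of the helicase, fell, while *Pcna* (from 93.0 to 50.7 RPKM) and *E2f1* (from 10.8 to 7.30 RPKM) stayed within 2-fold. For replication the order of lines differed, with medians of -1.55 in shControl, -0.86 in shNFIB and -1.20 in shMLL1 cells. Among 21 CDK inhibitors and p53 targets 3 rose and 2 fell, and *Cdkn1a*, which encodes p21, was at 31.0 and 30.5 RPKM.

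Many promoters of mitosis genes carry the letters of the cell cycle homology region (CHR, TTTGAA), through which such genes are known to be silenced in resting cells. Many also hold a CCAAT box, and each element was counted on its own. In the 36 promoters available, 23 held a CHR (63.9%) and 27 a CCAAT box (75%), against 14.2% and 43.9% over the 8404. The 3 members with the largest falls that hold both in a short stretch are shown, with the CHR and the CCAAT box in capitals on either strand.
Ect2, chr3:27153914-27154007, minus strand: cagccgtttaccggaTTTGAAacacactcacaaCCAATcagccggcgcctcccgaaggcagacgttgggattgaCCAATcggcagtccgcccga
Espl1, chr15:102296234-102296286, plus strand: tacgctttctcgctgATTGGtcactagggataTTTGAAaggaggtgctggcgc
Prc1, chr7:80294399-80294466, plus strand: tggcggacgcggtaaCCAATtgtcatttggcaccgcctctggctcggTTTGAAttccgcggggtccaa
*Ect2*, a regulator of cytokinesis, fell from 16.8 to 4.19 RPKM (-1.98), *Espl1*, the separase that splits sister chromatids, from 6.41 to 1.79 RPKM (-1.78), and *Prc1*, a spindle midzone protein, from 40.8 to 12.5 RPKM (-1.69). The E2F letters TTTGGCGC or TTTCCCGC were in 11 of 35 replication promoters (31.4%), against 3.64% over the 8404.

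Many amino acid stress genes controlled by the factor ATF4 also fell. Of 42 listed genes 37 passed the limit, 23 fell and none rose (median -1.11, and 10 falls with scaling to *Gapdh*). Over all members 7.6% fell. *Psat1* (from 71.6 to 14.5 RPKM, -2.29), *Phgdh* (from 135 to 40.5 RPKM, -1.73) and *Shmt2* (from 47.0 to 11.6 RPKM, -2.01), enzymes of serine and one-carbon metabolism, and the asparagine synthetase *Asns* (from 77.2 to 19.6 RPKM, -1.97) were among the largest falls. *Trib3*, a pseudokinase that ATF4 induces, fell from 24.2 to 6.71 RPKM (-1.84). *Atf4* was at 212 and 109 RPKM (-0.96) and so just within 2-fold. The same 37 genes had a median of -1.54 in shControl cells, where 28 fell, 0.41 in shNFIB cells, where none fell, and -0.14 in shMLL1 cells, where 2 fell. The summed RPKM of the list went from 1776 to 879 in shKDM4D and from 1896 to 703 in shControl cells. In shNFIB cells it went from 853 to 1050 and in shMLL1 cells from 1182 to 1191, so these 2 lines started lower on day 0. The difference between the lines was not tested, with 1 library per condition.

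The amino acid response element bound by ATF4 (letters TGATGNAA, either strand, with N for any base) was in 12 of the 29 promoters available (41.4%), against 2.43% of the 8404. The 3 members with the largest falls that hold it are printed with the element in capitals.
Asns, chr6:7693210-7693247, minus strand: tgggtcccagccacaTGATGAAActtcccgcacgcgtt
Chac1, chr2:119351034-119351071, plus strand: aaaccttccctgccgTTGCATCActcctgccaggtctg
Slc7a11, chr3:50443638-50443694, minus strand: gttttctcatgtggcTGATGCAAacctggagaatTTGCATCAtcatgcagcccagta
*Chac1*, which degrades glutathione, fell from 21.3 to 5.74 RPKM (-1.87) and the cystine transporter *Slc7a11*, which shows 2 copies, fell from 2.67 to 0.834 RPKM (-1.57). Ribosome biogenesis had 8 falls and no rise among 37 genes (median -0.75), among them nucleolin (*Ncl*, from 232 to 113 RPKM) and *Nop56* (from 41.9 to 18.6 RPKM), and none of the 37 fell with scaling to *Gapdh*.

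The 15 largest falls among genes with an RPKM of at least 10 included growth, tendon and chromatin genes. *Prl2c2*, a proliferin (chromosome 13 of GRCm38, from 12996125 to 13005383), fell from 387 to 25.4 RPKM (-3.92), and reads of this family can be shared between near-identical copies. *Serpinb9b*, a protease inhibitor, fell from 36.3 to 2.35 RPKM (-3.90), *Prkg2*, a cGMP-dependent kinase, from 16.5 to 1.09 RPKM (-3.80) and *Scx*, the tendon factor scleraxis, from 11.5 to 0.807 RPKM (-3.67). The high mobility group genes *Hmga2* (from 24.99 to 2.96 RPKM, -3.04) and *Hmga1* (from 64.7 to 8.60 RPKM, -2.90), architectural proteins of dividing cells, fell in all 4 lines, with changes from -3.59 to -2.46. *Hmga1b*, which can share reads with *Hmga1*, fell from 151 to 25.4 RPKM. The BMP antagonist *Grem1* fell from 112 to 15.1 RPKM (-2.88) and the annexin *Anxa8* from 194 to 25.5 RPKM (-2.92). *Hspa4l*, *Sprr2k*, *Gm15867*, *Bcat1* and *Tnfrsf12a* were also among the 15, with changes from -3.47 to -2.62.

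Contractile and mechanical genes moved unevenly. Of 25 smooth muscle genes 15 passed the limit, 3 rose and 2 fell. Transgelin (*Tagln*) fell from 5.56 to 0.233 RPKM (-4.09) and *Actg2* fell (-2.18), while the abundant *Acta2* was at 1275 and 673 RPKM (-0.92) and *Mylk* rose (2.58). Of 20 factors and targets of the YAP/TAZ pathway 4 fell and 2 rose, with *Ankrd1* (from 2.84 to 0.210 RPKM) and *Ctgf* (from 23.6 to 4.95 RPKM) among the falls. The immediate early list split as well, with 8 rises and 6 falls among 25, and 4 and 5 among the 20 above the limit on both days. *Fos* (from 0.109 to 3.23 RPKM), *Egr1* (from 4.51 to 30.4 RPKM) and *Nr4a1* (from 0.919 to 7.19 RPKM) rose, whereas *Fosl1* (from 38.0 to 9.49 RPKM) and the phosphatase gene *Dusp4* (from 9.003 to 0.523 RPKM) fell.

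Rises were frequent among matrix genes. Over all members 10.6% rose, and 6.73% of those above the limit on both days. Of 35 proteoglycans and other matrix proteins 31 passed the limit and 15 rose, none falling (median 0.65, and 0.33 with 7 rises among the 23 above the limit on both days). *Ogn* (from 27.5 to 462 RPKM, 4.07) and *Aspn* (from 44.7 to 449.7 RPKM, 3.33), small leucine-rich proteins, and *Postn*, periostin (from 15.6 to 285 RPKM, 4.18), rose from levels already above 10 RPKM. Elastin (*Eln*) went from no read to 2.74 RPKM (at least 145-fold). The abundant *Fn1* (from 504 to 470.3 RPKM) and *Sparc* (from 678 to 1066 RPKM) stayed within 2-fold. Of 28 collagen genes 22 passed, 9 rose and 2 fell. *Col3a1* (from 225 to 787 RPKM), *Col6a1* (from 104 to 427 RPKM) and the basement membrane collagen *Col15a1* (from 2.43 to 32.7 RPKM) rose, the main fibrillar chain *Col1a1* was at 953 and 842 RPKM, and *Col2a1* of cartilage fell from 27.5 to 5.59 RPKM (-2.28). Among 19 matrix proteases and inhibitors 9 rose, such as *Mmp2* (from 59.99 to 227 RPKM), and 3 fell, such as *Timp1* (from 192 to 68.0 RPKM). Of the 16 above the limit on both days 6 rose and 3 fell.

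Several ligands and secreted modulators of growth factor pathways rose. The share of all members that rose was 10.6%, and 6.73% of those above the limit on both days. Of 44 Wnt pathway genes 18 passed, 9 rose and 1 fell (median 1.18, and 0.96 with 5 rises among the 12 above the limit on both days). *Sfrp2*, a secreted Wnt antagonist, rose from 0.998 to 28.9 RPKM (4.72), *Wnt5b* from 0.289 to 5.53 RPKM (3.85) and the R-spondin *Rspo2* from 19.2 to 72.5 RPKM (1.91). In the insulin and IGF pathway 9 of 23 rose and 1 fell, and of the 17 above the limit on both days 4 rose. *Igf1* rose from 0.310 to 12.5 RPKM (4.94), *Igfbp3* from 0.818 to 17.6 RPKM (4.27) and the receptor substrate *Irs1* from 15.2 to 31.3 RPKM (1.04), and *Igfbp7* fell from 558 to 235 RPKM (-1.24). In the TGF-β and BMP pathway 7 of 30 rose and 7 fell, with *Fstl1* (from 318 to 1164 RPKM) rising and *Bmp4* (from 57.3 to 27.1 RPKM) falling.

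Genes that respond to glucocorticoids rose more often than they fell. Of 30 listed, 23 passed the limit, 9 rose and 1 fell (median 0.71). The same 23 had a median of 1.50 and 15 rises in shControl cells. Of the 21 above the limit on both days in shKDM4D cells, 7 rose and 1 fell. Glutamine synthetase (*Glul*) rose from 13.4 to 72.9 RPKM (2.44, and 3.83 in shControl cells), the clock gene *Per1* from 3.11 to 9.07 RPKM (1.52) and *Tsc22d3*, the leucine zipper GILZ, from 5.23 to 10.96 RPKM (1.05). *Fkbp5*, a chaperone cofactor of the receptor, was at 4.03 and 5.48 RPKM (0.43, and 1.78 in shControl cells). Dexamethasone had been withdrawn on day 2. The letters of a full glucocorticoid receptor element (GNACANNNTGTNC, either strand) were in 3 of the 20 promoters available (15%), against 0.345% of the promoters of the members.

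Complement, acute-phase and chemokine genes had the largest median change of the immune lists. Of 43 listed 24 passed, 18 rose and none fell (median 2.48, and 1.18 with 11 rises among the 17 above the limit on both days), against 10.6% of all members. Their summed RPKM went from 669 to 2831. Complement *C3* rose from 66.0 to 753 RPKM (3.51), *C1s1* from 8.18 to 116 RPKM (3.81), *C4b* from 0.135 to 14.5 RPKM (5.96) and the interleukin antagonist *Il1rn* from 42.8 to 724 RPKM (4.08). Haptoglobin (*Hp*) rose from 0.351 to 29.2 RPKM (6.02) and was at 304 RPKM in shControl cells on day 5. The chemokine *Cxcl12* rose from 68.5 to 523 RPKM, while *Ccl2* was at 119 and 70.9 RPKM. The median in shControl cells was 2.42, with 17 rises. The C/EBP letters TTGCNNAA on either strand were in 7 of 15 promoters available (46.7%), against 9.76% over the 8404, and are in capitals in 3 of those that rose.
Orm2, chr4:63362314-63362351, plus strand: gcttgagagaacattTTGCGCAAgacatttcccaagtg
C1s1, chr6:124542579-124542609, minus strand: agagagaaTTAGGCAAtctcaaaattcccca
C3, chr17:57228159-57228196, minus strand: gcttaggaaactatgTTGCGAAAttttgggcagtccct
*Orm2*, an acute-phase protein, went from no read to 1.37 RPKM.

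Rises were also frequent among interferon-stimulated genes. Of 51 listed 33 passed the limit, 21 rose and none fell (median 1.27), against 10.6% of all members rising. Of the 21 above the limit on both days, 9 rose, with a median of 0.86, against 6.73% of all such genes. *Bst2*, tetherin, rose from 0.907 to 6.97 RPKM (2.81), *Igtp* from 0.937 to 5.79 RPKM (2.51) and *Gbp7* from 0.620 to 3.94 RPKM (2.49), the last pair being GTPases of cell-intrinsic defence. *Ifit3* rose from 10.5 to 45.7 RPKM (2.12, and 0.90 in shControl cells). The membrane protein *Ifitm3* (from 273 to 377 RPKM) stayed within 2-fold. The same 33 genes had a median of 0.75 in shControl, 2.95 in shNFIB and 4.69 in shMLL1 cells. MHC class I and antigen processing genes had 9 rises and no fall among 15 (median 1.10), led by the peptide transporter *Tap2* (from 0.772 to 8.32 RPKM, 3.27), and *B2m* was at 691 and 1283 RPKM. Of the 13 MHC and antigen processing genes above the limit on both days 7 rose.

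The interferon-stimulated response element (ISRE, letters GAAANNGAAA on either strand) was in 16 of the 25 interferon gene promoters available (64%), 5 of 13 MHC promoters (38.5%) and 3.63% of the 8404. Among all promoters of genes that rose it was in 58 of 814 (7.13%). The element is in capitals in 3 of the promoters whose genes rose most, and in *Bst2* 2 matches overlap.
Bst2, chr8:71537572-71537617, minus strand: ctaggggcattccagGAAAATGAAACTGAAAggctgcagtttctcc
Igtp, chr11:58199507-58199546, plus strand: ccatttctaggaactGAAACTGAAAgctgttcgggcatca
Gbp7, chr3:142530268-142530307, plus strand: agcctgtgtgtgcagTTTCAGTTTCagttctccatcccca

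Several large lists stayed near the median. None of 54 ribosomal proteins (median -0.23), 47 respiratory chain subunits (-0.05), 22 ER chaperones (0.12) or 15 genes of the mitochondrial genome (0.15) moved by more than 2-fold. With scaling to *Gapdh* the medians of the ribosomal and respiratory chain lists turned positive, 0.24 and 0.41, so their direction depends on the scale, and 7 of the ER chaperones and 2 of the respiratory chain genes rose. In the list of KDM4 demethylases and H3K9 methyltransferases 1 of 18 genes rose and 2 fell. The rise was of *Kdm7a*, a listed demethylase outside the KDM4 family, from 1.35 to 4.11 RPKM (1.54). The methyltransferases *Suv39h1* (from 6.92 to 3.01 RPKM, -1.18) and *Suv39h2* (from 2.90 to 0.902 RPKM, -1.58) fell. The paralogues *Kdm4a*, *Kdm4b* and *Kdm4c* had changes of 0.34, 0.95 and 0.48, and *Kmt2a*, which encodes MLL1, was at 4.68 and 4.89 RPKM.

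**Figure D4:**
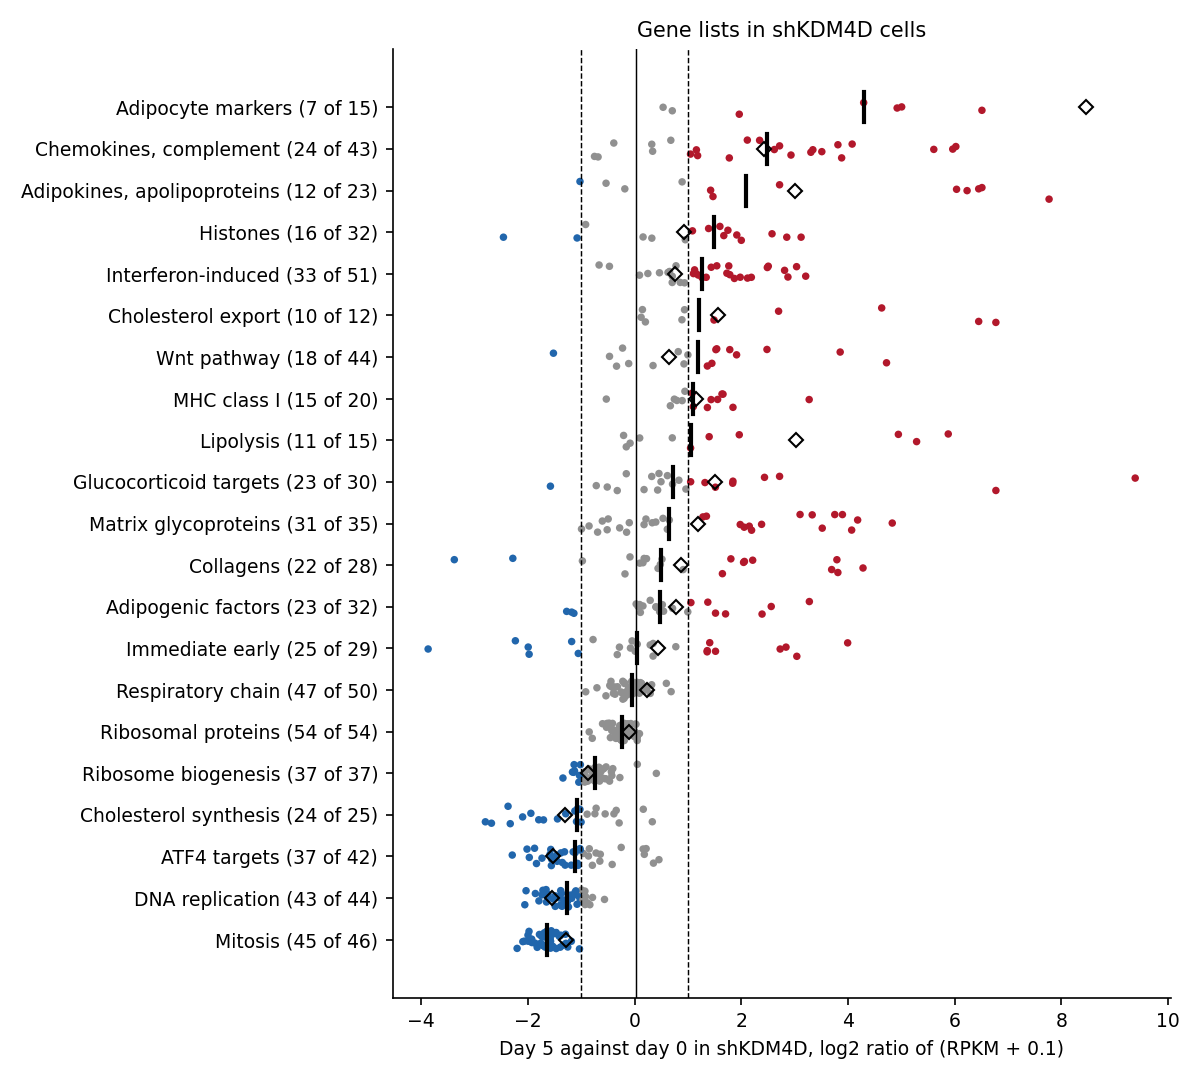
Each point is 1 gene above the RPKM limit, placed by its log2 ratio of (RPKM + 0.1), day 5 to day 0, in shKDM4D cells, with rises past 2-fold in red and falls in blue, a black bar at the median of the list and an open diamond at the median of the same genes in shControl cells. Labels give the genes above the limit of those listed, and the adipocyte markers show the widest gap between bar (4.29) and diamond (8.45).

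A large part of the response was shared with the other lines, whose within-line changes use none of the shKDM4D libraries. By the same rule 1302 of 10960 genes rose (11.9%) and 863 fell (7.87%) in the shControl line. The counts were 1096 (10.1%) and 486 (4.48%) of 10838 for shNFIB, and 1998 (18.2%) and 719 (6.55%) of 10980 for shMLL1. Of the genes that rose in shKDM4D cells, 834 also rose in shControl cells, which is 72.7% of the former and 64.1% of the latter. For the falls the number was 590, or 72.0% and 68.4%. The rises were shared with shNFIB cells for 650 genes (56.7% and 59.3%) and with shMLL1 cells for 864 (75.3% and 43.2%). The falls were shared for 346 (42.2% and 71.2%) and 433 genes (52.9% and 60.2%). In all 4 lines 498 genes rose and 225 fell.

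Where the change in shKDM4D cells departed from that of shControl cells, it was more often lower. The log2 change was higher by more than 1 for 169 members (1.57%) and lower by more than 1 for 224 (2.08%), and the interval for counting error excluded 0 for 128 and 177 of these. Among genes past 2-fold with an RPKM of at least 10, the largest positive difference was in *Igfbp3*, an IGF-binding protein (4.27 against 1.71, interval of the difference 2.08 to 3.15), apart from *Gm48197*, which had 1 read on day 0. *Nov*, a matricellular CCN protein, rose from 59.6 to 1556 RPKM (4.70 against 3.15, interval 1.50 to 1.62). *Tnfrsf21*, a death receptor (5.80 against 3.86), and *Penk*, proenkephalin (5.01 against 3.11), were also more strongly induced. On the negative side, *Ctla2a*, a cathepsin inhibitor, rose from 6.12 to 18.5 RPKM (1.58) against 5.82 in shControl cells. The predicted gene *Gm9803* fell from 11.5 to 2.55 RPKM (-2.14 against 2.06). *Fabp5*, an epidermal fatty acid binding protein, fell from 10.3 to 3.63 RPKM (-1.48 against 0.49), and *Prg4*, lubricin, fell from 23.04 to 3.99 RPKM (-2.50 against -0.42). Below the limit of 10 RPKM, *Mcam*, a surface marker of perivascular cells, fell from 2.95 to 0.787 RPKM (-1.78 against 1.82). *Pcx*, *Ccl9*, *Fmo1*, *Hp* and *Cyp2f2* rose in both lines, by less in shKDM4D cells.

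**Figure D5:**
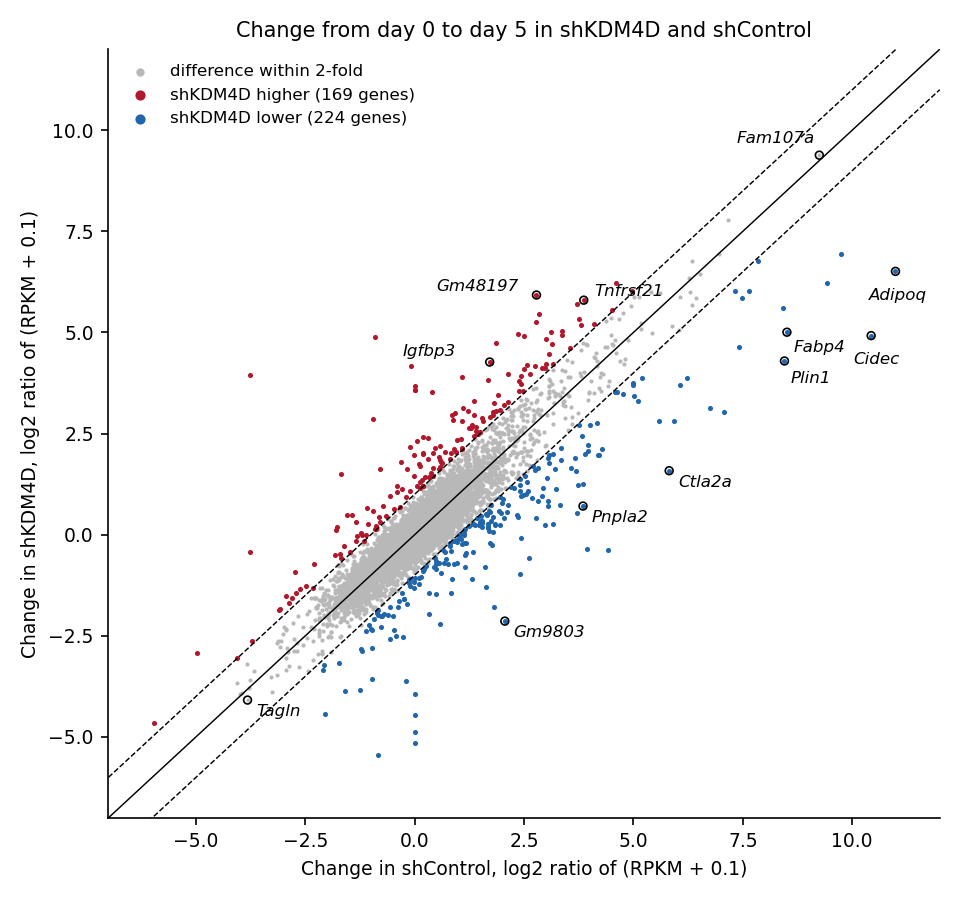
The log2 ratio of (RPKM + 0.1), day 5 to day 0, in shControl cells (x axis) against shKDM4D cells (y axis) for the 10774 genes, with a solid line at equality and dashed lines at a 2-fold difference. The 224 blue genes below the lower line include *Adipoq*, *Cidec*, *Fabp4* and *Plin1*, and the 169 red genes above the upper line include *Igfbp3* and *Tnfrsf21*.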

How the data were processed

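RNA-seq of 8 libraries was used, 1 for each of 4 lines at day 0 and day 5, with groups taken from the sample titles. Per the labels and methods of the study, 1.3 µg of total RNA went into each library, which was sequenced on a HiSeq 2500. Reads were mapped by CLC Genomics Workbench 11.0.1 to GRCm38, at a cost of 2 for a mismatch and 3 for an insertion or deletion and with length and similarity fractions of 0.8. The authors deposited 1 RPKM value for each of 41325 gene symbols. The methods of the study describe quantile normalization, but the deposited values have a different distribution in each library, so it was used here as an alternative only. RPKM corrects for exon length and mapped reads, and moves with the share of reads taken by abundant transcripts.

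Symbols were matched to GENCODE M21 (40887, of which 36 through a synonym). RPKM multiplied by exon length came out within 0.02 of a whole read for 96.2% to 96.6% of the values between 1 and 1000 reads, which gave the depth of each library and whole reads for 10393 of the 10774 members. Log2 changes were taken on RPKM + 0.1 and understate the change of low genes. Exact 95% intervals are for the ratio of reads without the 0.1, and so can lie above the log2 change. These intervals and the floor of 3 reads cover counting error only, since PCR copies are not independent molecules. The recovery of reads and the counting of changes were tested on simulated data. With 1 library per condition no statistical test was run.

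The members, the 55 gene lists and the named genes were chosen with earlier results of these data known. Named were the 15 highest and 15 lowest changes with an RPKM of at least 10, the study's target and adipogenic genes, up to 4 members of each list in each direction together with its defining markers, 10 genes in each direction by difference from shControl cells, the 10 most abundant genes and the genes beside each limit. Some genes that this rule selects are not reported here. Other list members were named beside their list, *Tmem121* lies outside the filter, and the CCAAT box was added to the promoter motifs after the values were seen. Promoter motifs for PPAR-RXR, serum response factor and nuclear factor I were searched too and are not described. Alternatives covered the pseudocount, the RPKM filter, 4 scalings and the gene types. Filtering on both days and requiring the interval to lie past 2-fold were added after seeing the data. Python 3.11.15, numpy 2.4.6, pandas 2.3.3, scipy 1.17.1 and matplotlib 3.10.9 were used.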

Additional observations from a re-analysis of the deposited data

Results flagged for a closer look

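For 9 of the genes chosen for naming, the change from day 0 to day 5 passed 2-fold in shKDM4D cells in one direction and in another line in the opposite direction, in 11 gene and line pairs. Over all 10774 members such opposite changes were found for 2 rises and 3 falls of shKDM4D cells against shControl, 4 rises and 10 falls against shNFIB, and 3 rises and 14 falls against shMLL1 cells. With 1 library per condition none of these differences was tested. Values are log2 changes of (RPKM + 0.1), and the difference is shKDM4D minus the other line.

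Against shControl cells, *Gm9803*, a predicted gene, fell from 11.5 to 2.55 RPKM in shKDM4D cells and rose from 4.001 to 17.0 RPKM in shControl cells (-2.14 and 2.06, difference -4.20). *Mcam* fell from 2.95 to 0.787 RPKM and rose from 1.18 to 4.42 RPKM in shControl cells (-1.78 and 1.82, difference -3.60). *Ppa1*, an inorganic pyrophosphatase, fell from 15.3 to 7.09 RPKM and rose from 21.98 to 54.3 RPKM in shControl cells (-1.10 and 1.30, difference -2.40). Each of these 3 was already expressed in both lines on day 0.

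Against shNFIB cells, the ATF4 targets *Chac1* (-1.87 and 1.85, difference -3.73) and *Trib3* (-1.84 and 1.98, difference -3.82) and the stress gene *Gadd45a* (-1.28 and 1.09, difference -2.37) fell in shKDM4D and rose in shNFIB cells. On day 0 these 3 stood at 21.3, 24.2 and 23.4 RPKM in shKDM4D cells and at 3.44, 2.29 and 4.77 RPKM in shNFIB cells.

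Against shMLL1 cells, *Trib3* (-1.84 and 2.08, difference -3.92) and *Gadd45a* (-1.28 and 1.89, difference -3.17) again moved in opposite directions. The matrix and adhesion genes *Prg4* (-2.50 and 2.00, difference -4.50), *Itga11*, a collagen receptor (-1.21 and 1.67, difference -2.88), and *Sulf1*, a heparan sulfate sulfatase (-1.58 and 1.01, difference -2.58), did so as well.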

How the results depend on the processing

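No paired analysis was possible because the change within shKDM4D cells rests on 1 library per day and the labels carry no replicate numbers, while pairing the days by line would average over the 4 lines. Of 26 counts under other settings, 20 stayed within 1.5 times the reported count, and 6 did not. With no RPKM filter 2145 genes rose, and with a filter above 5 RPKM 626 did. Scaling to *Gapdh* gave 2358 rises and 376 falls, and the filter on both days, added after the data were seen, gave 659 rises. A pseudocount of 1 left 211 genes that differed by more than 1 from the change in shControl cells, against 393. Quantile normalization changed *AY036118* and *CT010467.1* to 0, since it gives the highest genes of each library equal values. Of 569 list medians under other settings, 546 stayed within the 95% order-statistic interval of the median over the list's own genes and 23 did not, 21 of them under scaling to *Gapdh*, which also turned the sign of 10. The mitosis median was -1.52 with a pseudocount of 1, and the ribosomal protein median -0.30 with the ribosomal-RNA-like entries left out. Low depth limits genes such as *Kdm4d* and the adipocyte markers with fewer than 4 reads on day 0, whose fold changes have wide or open intervals.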

Other observations

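Further groups are given beside the share of all members that rose (10.6%) or fell (7.6%). Of 27 genes of retinoid metabolism and signalling 13 passed the RPKM limit, 6 rose and 1 fell, and of the 9 above it on both days 2 rose. The alcohol dehydrogenase *Adh1* rose from 0.779 to 24.4 RPKM (log2 change 4.80), while *Rdh10*, which makes retinaldehyde, fell from 8.53 to 1.62 RPKM (-2.32). Of 34 NRF2 antioxidant genes 29 passed, 5 rose and 1 fell, with the glutathione transferases *Gsta4* (from 39.0 to 234 RPKM, 2.58) and *Gstm1* (from 48.9 to 235 RPKM, 2.26) among the rises. Replication-dependent histone genes had 10 rises and 2 falls among 16. Without the limit, 11 rose and 9 fell among 31, and the median was 0.38 in place of 1.49. *Hist1h1c* rose from 12.3 to 89.2 RPKM (2.85) and *Hist1h2bc* from 45.2 to 152 RPKM (1.75), whereas *Hist1h2ab* fell (-2.46). Of 34 lysosomal genes 30 passed, 5 rose and none fell. Ferritin heavy chain (*Fth1*) was the most abundant protein-coding gene on day 5 and rose from 1693 to 3863 RPKM (1.19).

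On the cell surface, *Pdgfra*, the receptor that marks fat precursors, rose from 14.97 to 50.5 RPKM (1.75), *Vcam1* rose from 8.96 to 29.2 RPKM (1.70) and *Cd248* rose from 229 to 469 RPKM (1.04). Of 14 MSC and fibroblast surface markers above the limit these 3 rose and 2 fell, with a median of -0.52, and 0.21 for the same genes in shControl cells. The change was above 0 for 6 of the 14 and below 0 for 8, and the largest fall was of *Mcam* (-1.78). Among 20 cAMP-responsive genes 11 passed, 5 rose and 1 fell, the fall being cyclooxygenase *Ptgs2* (from 17.8 to 3.23 RPKM, -2.43). Of the 8 above the limit on both days 2 rose and 1 fell. Of 16 circadian clock genes above the limit 2 rose and 2 fell.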
